A study of Rattus norvegicus with 8 samples.

Results

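Extracellular matrix and fibroblast genes were compared between the orbital and the global layer of the rat muscles that move the eyeball, the extraocular muscles. The list held 38 genes: collagens, small leucine-rich proteoglycans, matricellular and tendon proteins, proteases and their inhibitors, and other matrix glycoproteins with fibroblast genes. Each gene was taken by its brightest probe set, by mean intensity over the 8 arrays. Of the 38 genes, 37 were on the array, Thbs2 was not, and the array held 10411 genes with a probe set named for 1 gene. Of the 37, 35 passed a filter on dim probe sets (a mean log2 value at or above that of an intensity of 39.4), and Tnc and Spp1 did not.

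The tissue was adult rat extraocular muscle, cut by laser under the microscope into its orbital layer, which faces the bony orbit, and its global layer, which faces the eye. Each layer was represented by 4 captures with 1 array each. Orbital captures 3 and 4 carry nearly the same title, and the labels do not say whether they are separate captures. The labels give no strain, sex, treatment or animal for a capture. Captures are numbered here in accession order within a layer. Their titles begin with R2 or R3, whose meaning the labels do not state, and captures 1 and 2 of each layer carry R2 and captures 3 and 4 carry R3. No label ties a capture to an animal: p-values here reflect no more than the scatter among captures, and are too small should several captures come from 1 rat.

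The extracellular matrix of muscle is the connective tissue that wraps fibres and bundles and joins them to tendon. Fibroblasts make most of it. Fibrillar collagens carry tension, small leucine-rich proteoglycans such as decorin bind to collagen fibrils and govern their assembly, matricellular proteins act on cells more than they bear load, and proteases with their inhibitors set the turnover of the whole. Extraocular muscles are known for fibres of the orbital layer that end in connective tissue pulleys rather than on the globe.

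Intensities are on the authors' linear scale, with medians of 59.0 to 66.4 over the 8 arrays, and intensities of different genes are not compared. Differences are orbital minus global means of log2(intensity + 1), given ± their standard error (SE), from 4 captures of each layer. Adjusted p-values are from limma over all 9520 probe sets tested, with Benjamini-Hochberg adjustment and a threshold of 0.05, which 705 of them (7.41%) passed. All 12 of the skeletal muscle fibre markers on the array passed the filter, and in the fit Mb was higher and Ttn and Casq1 lower in the orbital layer. Their summed intensity was 62591 to 89483 in the orbital and 68955 to 94211 in the global captures. In bulk tissue, fewer cells of a type and less RNA per cell cannot be told apart.

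The protease Adamts1, the tendon matrix protein Thbs4 and the proteoglycan Fmod were higher in the orbital layer. Fibrillar collagens showed no difference that passed the test, and Col1a1, at its brightest probe set, was highest in 1 global capture that also held bone transcripts. Most other members lay somewhat higher in the orbital captures without passing. In all, 3 of 35 members tested (8.57%) were higher in the orbital layer and 0 were lower in limma's test, where 7.68% of the 7163 genes tested passed in either direction, 4.09% higher and 3.59% lower. With 3 genes, the share of members called lay close to that background and is no result about the list. At an unadjusted p under 0.05, 15 members (42.9%) were higher and 1 lower, against 12.0% and 9.91% of all genes tested. The difference was above 0 for 30 of the 35 members (85.7%), against 53.2% of all genes tested. The median difference of the members was 0.32, beside 0.02 over all genes tested. The members were chosen with earlier results of these data known, so these shares and medians are no test of the list. The 15 members include Comp and Col6a2, which passed the filter through their orbital values. The members that passed numbered 6 without global capture 2, 6 without orbital capture 4 and 5 with the filter at the 60th percentile. They numbered 1 with global captures 2 and 3 alone, and 1 with either title prefix alone.

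**Figure D1:**
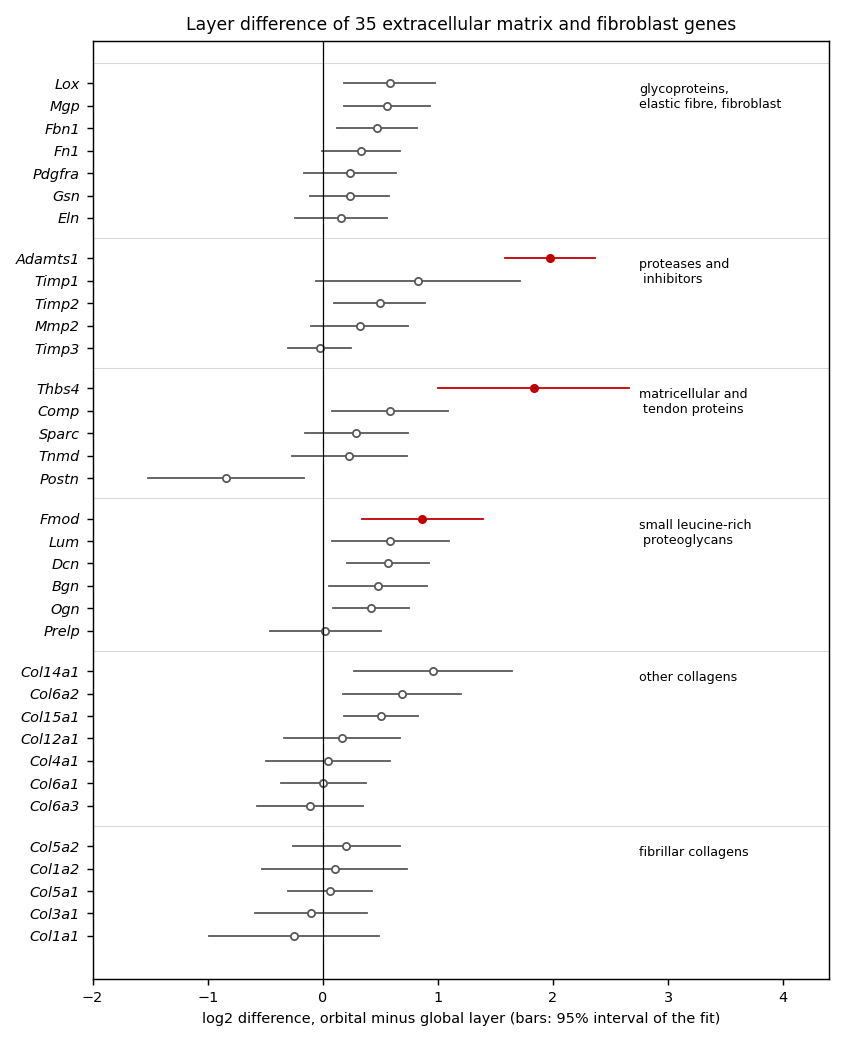
Log2 difference between the layers (x axis, orbital minus global) for the 35 members tested, grouped by role, with bars for the 95% interval of the fit and filled red points for an adjusted p under 0.05. Adamts1, Thbs4 and Fmod passed, while the 5 fibrillar collagens lie between -0.25 and 0.20.

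Adamts1 encodes a secreted metalloprotease that cleaves proteoglycans such as versican and aggrecan. Its intensity was 1582, 1454, 985 and 1254 in orbital captures 1 to 4 and 325, 441, 324 and 256 in global captures 1 to 4. Every orbital capture lay above every global capture. Means were 1319 ± 260 (SD, n = 4) for orbital and 336 ± 76.6 for global captures, and the log2 difference was 1.97 ± 0.18 (SE) with an adjusted p of 4.44e-05 in limma. The difference was 2.0 between the R2 captures and 1.94 between the R3 captures. It passed in each of 23 alternatives, with adjusted p-values of 1.57e-05 to 0.00510.

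Thbs4 encodes thrombospondin 4, a matricellular protein of tendon and of the muscle matrix. Its intensity was 664, 524, 943 and 251 in the orbital captures and 79.3, 275, 151 and 153 in the global captures, in order of number. Orbital capture 4 was the only orbital capture below any global capture, lying just under global capture 2. Means were 595 ± 288 (SD, n = 4) for orbital and 164 ± 81 for global captures, and the log2 difference was 1.83 ± 0.38 (SE, limma adjusted p = 0.0104). The difference was 1.99 between the R2 captures and 1.67 between the R3 captures. The call was lost with robust eBayes (adjusted p = 0.0646), with global captures 2 and 3 alone (0.101) and with R2 (0.114) or R3 (0.110) alone, within a range of 0.00185 to 0.114 over the alternatives.

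Fmod encodes fibromodulin, a small leucine-rich proteoglycan abundant in tendon. The orbital captures had intensities of 235, 206, 264 and 127, and the global captures 122, 113, 143 and 73.9. As with Thbs4, orbital capture 4 was the only orbital capture within the global range. Means were 208 ± 58.8 (SD, n = 4) for orbital and 113 ± 28.9 for global captures, and the log2 difference was 0.86 ± 0.24 (SE, limma adjusted p = 0.0472). It passed in 8 of 23 alternatives, with adjusted p-values of 0.00971 to 0.348. The call was lost without global capture 1, 2 or 4 and without orbital capture 1, 2 or 3 (0.0721 to 0.140). It was also lost with either other normalization, without the filter, without the trend, with the title prefix as a block, and in the fits on part of the captures.

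The 3 promoters are shown because these are the members that passed and moved in 1 direction. RefSeq promoter sequences of the rat build GRCr8 were matched by symbol for 24 of the 38 members. The 250 bases before the annotated gene start are printed, 5′ to 3′ in the direction of the gene. Capitals mark matches, on either strand, to 4 motifs. The TATA box was searched as TATAAA and the binding site of factor NF-Y as CCAAT. The GC box bound by Sp1 was searched as GGGCGG, and the AP-1 site as TGANTCA. None of these motifs contains another. Of all 33469 promoter windows of this length, 12.9% held TATAAA, 34% CCAAT, 30.5% GGGCGG and 6.34% TGANTCA. The windows are chr11:38427385-38427634 on the minus strand for Adamts1, chr2:25760346-25760595 on the minus strand for Thbs4 and chr13:48045317-48045566 on the plus strand for Fmod.
Adamts1: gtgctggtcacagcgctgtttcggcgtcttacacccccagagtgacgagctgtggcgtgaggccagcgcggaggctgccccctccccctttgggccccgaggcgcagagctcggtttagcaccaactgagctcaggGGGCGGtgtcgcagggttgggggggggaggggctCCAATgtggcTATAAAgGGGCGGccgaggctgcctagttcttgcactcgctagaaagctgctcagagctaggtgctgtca
Thbs4: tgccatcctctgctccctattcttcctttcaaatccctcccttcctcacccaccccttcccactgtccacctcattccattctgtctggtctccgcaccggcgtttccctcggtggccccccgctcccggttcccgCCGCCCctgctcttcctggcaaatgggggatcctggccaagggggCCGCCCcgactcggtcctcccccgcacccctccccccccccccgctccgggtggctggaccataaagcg
Fmod: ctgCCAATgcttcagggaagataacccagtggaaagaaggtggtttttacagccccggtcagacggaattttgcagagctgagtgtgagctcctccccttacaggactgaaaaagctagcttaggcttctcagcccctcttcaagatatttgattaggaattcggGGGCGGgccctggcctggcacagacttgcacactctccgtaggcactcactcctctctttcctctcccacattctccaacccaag
The Adamts1 window held TATAAA once, starting 70 bases before the annotated start, CCAAT once, 80 bases before it, and GGGCGG at 114 and 63 bases before it. Thbs4 held GGGCGG on the opposite strand, at 114 and 69 bases before the start. Fmod held GGGCGG at 85 and CCAAT at 247 bases before the start. GGGCGG was the only motif found in all 3 windows, and 0 of the 3 held TGANTCA. A match is a description of the letters, and no binding was measured here.

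**Figure D2:**
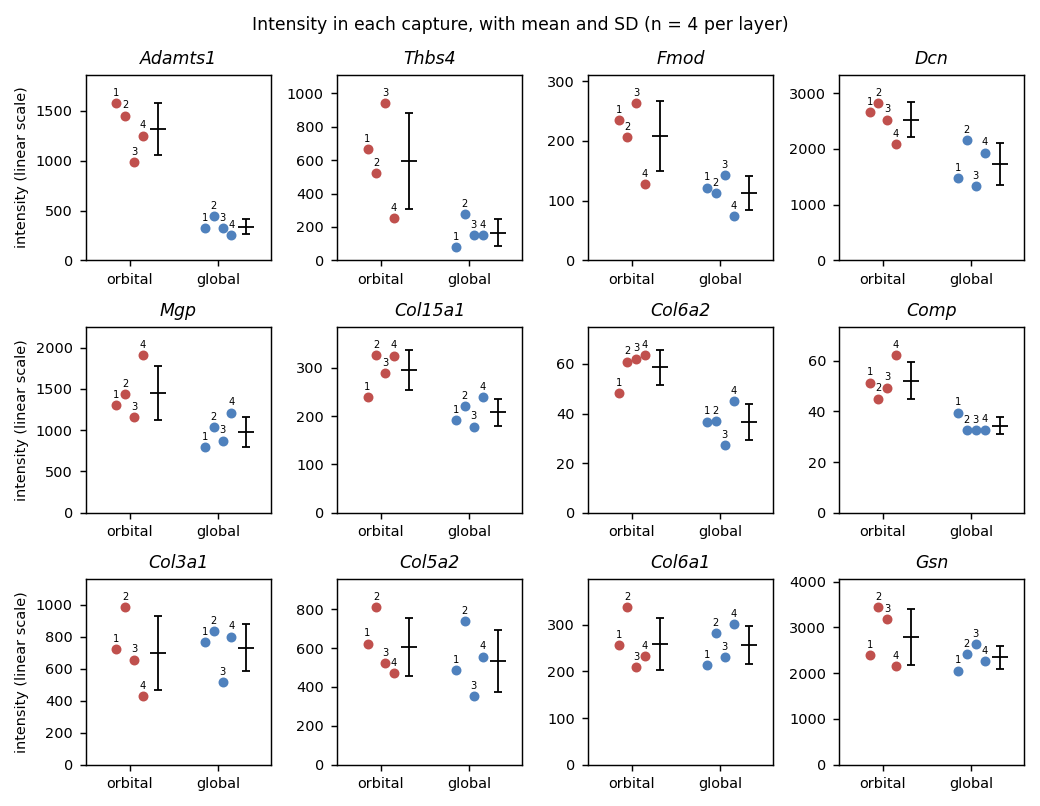
Intensity on a linear scale (y axis, from 0) in each of the 4 orbital (red) and 4 global (blue) captures, numbered by capture, for 12 members, with the mean and SD beside the points. Adamts1, Col6a2 and Comp do not overlap between the layers, while Col3a1, Col5a2 and Col6a1 do.

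Fibrillar collagens form the rope-like fibrils of connective tissue. Type I and III collagens are the bulk of them, and type V chains start the fibril. Of the 5 tested, 0 passed in either direction in limma, also at an unadjusted p under 0.05, and their median difference was 0.06. Col3a1 had 723, 984, 656 and 427 in the orbital captures and 768, 837, 514 and 801 in the global captures, and the layers overlapped throughout. Its difference was -0.10 ± 0.23 (SE), with a 95% interval of -0.59 to 0.39 (limma adjusted p = 0.839). Col5a2, which had the smallest p of the group, had 622, 809, 521 and 472 in the orbital and 486, 737, 353 and 556 in the global captures, a difference of 0.20 ± 0.22 (adjusted p = 0.648, limma). The differences of Col1a2 and Col5a1 were 0.10 and 0.06. The intervals of these 4 collagens reached from -0.59 at the lowest to 0.74 at the highest.

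Col1a1, the alpha 1 chain of type I collagen, is described after its values were seen. It had 506 in global capture 2 and 142 to 178 in the other global captures, against 142, 270, 180 and 145 in the orbital captures. Its difference was -0.25 ± 0.34 (SE, limma adjusted p = 0.729), and 0.17 without global capture 2. A second, dimmer probe set of Col1a1 fell below the filter. It was highest in global capture 4, at 84.5, against 33.7 in global capture 2. With the mean over probe sets the difference of Col1a1 was -0.71 (limma adjusted p = 0.26). The bone matrix genes Bglap (osteocalcin) and Ibsp (bone sialoprotein) stood apart in global capture 2. Bglap had 117 in global capture 2 and 0.90 to 2.0 in the other 7 captures. Ibsp had 111 there and 0.80 to 21.4 in the others. Of the 6 cartilage and bone markers on the array, 0 passed the filter on their mean, and their summed intensity was 318 in global capture 2, 104 to 187 in the other global and 59.2 to 144 in the orbital captures. The sum in global capture 2 was made up mostly of Bglap and Ibsp. Acan and Col2a1 were highest in global capture 4 (72.0 and 66.0), against 39.9 and 32.1 in global capture 2. Col9a1 had 7.9 in global capture 2 and 28.7 to 35.3 in the other global captures. Col11a1 was under the highest bacterial control of the array in every capture. The part of bone transcripts in the collagen values was not tested.

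**Figure D3:**
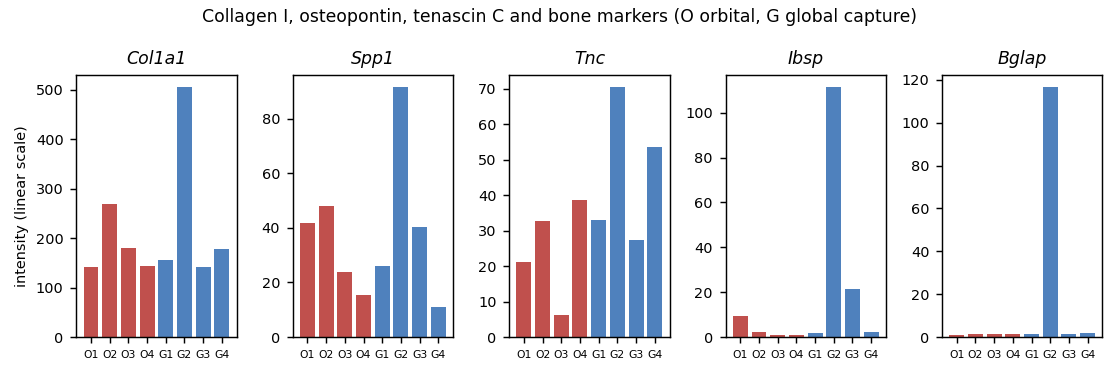
Intensity on a linear scale (y axis) in each orbital (O, red) and global (G, blue) capture for Col1a1, Spp1, Tnc and the bone markers Ibsp and Bglap. In all 5 panels global capture 2 is the highest, with Bglap at 117 there and at most 2.0 elsewhere.

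Spp1, which encodes osteopontin, a matricellular protein of bone and injured tissue, and Tnc, which encodes tenascin C of tendon and developing tissue, fell below the filter and were not tested. Spp1 had 41.9, 48.0, 23.9 and 15.3 in the orbital and 26.0, 91.6, 40.5 and 11.0 in the global captures. Tnc had 21.1, 32.7, 6.3 and 38.7 in the orbital and 32.9, 70.5, 27.3 and 53.6 in the global captures. Global capture 2 was the highest for both. The highest of 27 bacterial control probe sets was at 17.7 to 41.5 on the 8 arrays. Spp1 was under it in 1 capture of each layer and Tnc in 2 orbital captures.

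Among the other collagens, the sheet-forming, microfibrillar and fibril-associated types, 0 of 7 passed in either direction and the median was 0.17. Of the 7, 3 were higher at an unadjusted p under 0.05, beside 12.0% of all genes tested. Col14a1, which coats fibrils, had the largest difference of the group at 0.96 ± 0.32 (SE, adjusted p = 0.0938, limma). Its orbital captures held 323, 272, 303 and 96.5, and its global captures 87.6, 141, 130 and 112. Orbital capture 4 lay among the global captures. Without that capture the difference was 1.36 (limma adjusted p = 0.000993, from a range of 0.000993 to 0.649 over the alternatives). A second probe set of Col14a1 differed by 0.82 (adjusted p = 0.0986, limma). Col14a1 is described after its values were seen.

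Col15a1, a collagen that links basement membranes to the fibrils around them, had 239, 327, 289 and 326 in the orbital and 191, 222, 178 and 240 in the global captures. Its difference was 0.50 ± 0.15 (SE, limma adjusted p = 0.0603). Only the lowest orbital and the highest global capture met. Col6a2, a chain of the microfibrillar collagen VI around muscle fibres, had 48.3, 61.0, 62.2 and 63.6 in the orbital and 36.7, 36.9, 27.2 and 45.0 in the global captures. The layers did not overlap, and the difference was 0.69 ± 0.24 (SE, limma adjusted p = 0.107). Of its partner chains, Col6a1 had 256, 337, 210 and 232 in the orbital and 213, 281, 230 and 300.3 in the global captures, a difference of 0.01 ± 0.17, and Col6a3 differed by -0.11. A second, dimmer probe set of Col6a2, with means of 2.5 and 9.6, lay below the bacterial controls and was lower in the orbital layer without overlap. Col4a1 of the basement membrane differed by 0.04 and Col12a1 by 0.17.

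Small leucine-rich proteoglycans were higher in the orbital layer in sign for all 6 members tested, with a median of 0.52, and 1 passed (Fmod). At an unadjusted p under 0.05, 5 of the 6 were higher, beside 12.0% of all genes tested. The members were chosen with earlier results of these data known, so this count is no test of the group. Dcn, decorin, had 2662, 2827, 2528 and 2090 in the orbital and 1481, 2154, 1337 and 1933 in the global captures. Only orbital capture 4 lay within the global range, below global capture 2. The difference was 0.57 ± 0.16 (SE, limma adjusted p = 0.0542), and it passed in 5 of 23 alternatives (0.0228 to 0.322). Lum, lumican, differed by 0.59 and Bgn, biglycan, by 0.48. Ogn, osteoglycin, differed by 0.42, and by 0.41 and 0.39 at its other tested probe sets. Prelp, a proteoglycan of basement membranes and cartilage, differed by 0.02.

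Of the 5 matricellular and tendon proteins tested, 1 rose (Thbs4) and 0 fell, and the median was 0.29. Comp, cartilage oligomeric matrix protein, a relative of thrombospondin 4 in tendon, had 51.4, 45.1, 49.4 and 62.3 in the orbital and 39.5, 32.5, 32.6 and 32.8 in the global captures. The layers did not overlap, and the difference was 0.58 ± 0.23 (SE, limma adjusted p = 0.167). Comp, Col6a2 and Timp1 passed the filter through their orbital values, since their global means alone lay below it. Global capture 4 was under the highest bacterial control of its array for Comp and for Timp1. In all, 3 of 35 members (8.57%) did not overlap with the orbital captures higher, against 7.48% of all genes tested, and 0 with them lower, against 6.80%. Tnmd, tenomodulin, a membrane protein of tendon cells, differed by 0.23 and Sparc, osteonectin, by 0.29.

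Postn, periostin, a matricellular protein of ligament and wounds, was the 1 member with an unadjusted p under 0.05 in the other direction, and it is described after its values were seen. It had 173, 247, 203 and 232 in the orbital and 677, 549, 191 and 294 in the global captures. Global captures 1 and 2 stood above all others. Its difference was -0.84 ± 0.31 (SE, limma adjusted p = 0.131), -1.56 between the R2 captures and -0.13 between the R3 captures. The interaction of layer and title prefix had an unadjusted p of 0.00246 and an adjusted p of 1 in limma. The lowest adjusted p for that interaction among the members was 1, and the share of all 9520 probe sets that passed for it was 0.00%. The difference of Postn passed without global capture 3 (-1.17, adjusted p = 0.0153) and with R2 alone (0.0205), in a range of 0.0153 to 0.869 over the alternatives.

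Of the 5 proteases and inhibitors tested, Adamts1 was the only gene that passed. Tissue inhibitors of metalloproteinases showed no common size of difference. Timp1 differed by 0.83 ± 0.41 (SE, limma adjusted p = 0.268), with intensities of 66.3, 91.8, 68.1 and 56.4 in the orbital and 42.9, 81.8, 45.0 and 14.0 in the global captures. Timp2 differed by 0.49 and Mmp2, gelatinase A, by 0.32 at their brightest probe sets. A dimmer probe set pointed the other way in each, at -0.83 for Timp2 and -0.50 for Mmp2. Timp3 differed by -0.03 ± 0.13, with a 95% interval of -0.30 to 0.24. The median of the group was 0.49, and -0.05 with the mean over the probe sets of each gene.

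Among the remaining glycoproteins, elastic fibre and fibroblast genes, 0 of 7 passed in either direction. Of these 7, 3 were higher at an unadjusted p under 0.05, beside 12.0% of all genes tested. All 7 differences lay above 0, with a median of 0.33. Mgp, matrix Gla protein, an inhibitor of calcification, had 1301, 1440, 1159 and 1910 in the orbital and 798, 1038, 873 and 1213 in the global captures. Only orbital capture 3 and global capture 4 crossed, and the difference was 0.56 ± 0.17 (SE, limma adjusted p = 0.0704). Lox, lysyl oxidase, which cross-links collagen and elastin, differed by 0.58, and Fbn1, fibrillin 1 of microfibrils, by 0.47. Fn1, fibronectin, differed by 0.33 and Eln, elastin, by 0.16. Pdgfra, a receptor that marks muscle fibroblasts, differed by 0.23 ± 0.19 (SE, limma adjusted p = 0.516). Gsn, gelsolin, an actin-severing protein abundant in fibroblasts, had 2402, 3441, 3175 and 2155 in the orbital and 2057, 2422, 2631 and 2270 in the global captures, a difference of 0.23 ± 0.16 (adjusted p = 0.447, limma).

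The members also varied between captures of the same layer. Each gene was set to its own mean over the 8 captures on the log2 scale, and the median over the 35 members was taken in each capture. That median was 0.16, 0.41, 0.28 and -0.15 in orbital captures 1 to 4 and -0.27, 0.00, -0.42 and -0.09 in global captures 1 to 4. Orbital capture 4 lay below global captures 2 and 4, so the layers overlapped. For the fibrillar collagens alone, orbital capture 2 (0.47) and global capture 2 (0.42) were highest and global capture 3 (-0.45) and orbital capture 4 (-0.41) lowest, with no order by layer. For the proteoglycans all 4 orbital captures (0.06 to 0.46) lay above all 4 global captures (-0.28 to 0.01). The same held for the proteases and inhibitors (0.09 to 0.43 against -0.45 to -0.01). It also held for further lists described below, other matrix proteins (0.04 to 0.34 against -0.31 to -0.05) and TGF-beta and matrix-inducing signals (0.05 to 0.09 against -0.11 to -0.045). Of the 35 members, 13 were highest in orbital capture 2 and 13 were lowest in global capture 3.

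Levels of fibre genes and RNA quality also differed between captures. Over the 12 fibre markers, the same median was lowest in orbital capture 2 (-0.35) and highest in global capture 3 (0.33), the captures where the matrix members were highest and lowest. Gapdh signal from the 3′ end divided by that from the 5′ end, a measure that goes up with RNA breakage or short amplification, was 6.33, 5.81, 12.9 and 8.64 in the orbital captures and 5.35 to 6.47 in the global captures. The same ratio for actin did not set those captures apart, at 7.87, 9.16, 8.32 and 8.37 in the orbital and 9.61, 7.69, 7.93 and 10.7 in the global captures. With orbital captures 1 and 2 alone, 3 members passed (Col14a1, Thbs4 and Adamts1), and the median difference was 0.41. The 3 photoreceptor markers on the array summed to 239 to 1043 in the orbital and 13.9 to 503 in the global captures. Another fit set all 4 orbital captures against global captures 2 and 3 alone, where that sum was 13.9 and 51.2. Adamts1 passed in it (1.78, adjusted p = 0.00137, limma). Since the sums of the layers stayed apart, that fit cannot decide on a part of photoreceptor transcripts. The part of fibre content, RNA length and photoreceptor transcripts in the differences of the members was not tested.

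**Figure D4:**
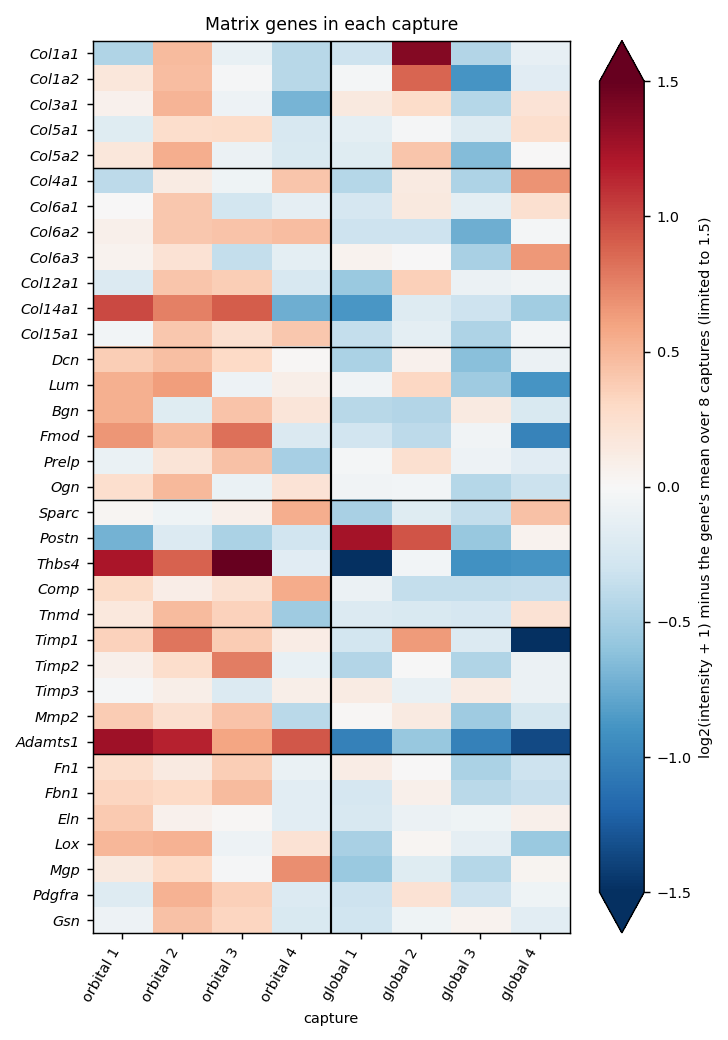
Log2(intensity + 1) minus the gene's mean over the 8 captures (colour, limited to 1.5 either way) for the 35 members tested (rows, in role groups split by lines) in the 4 orbital and 4 global captures (columns). Adamts1 is above its mean in all 4 orbital captures, whereas Col1a1 is highest in global capture 2.

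Fibroblast markers outside the member list were read from the same fit. Of the 12 on the array 8 were tested, 1 rose and 0 fell, with a median of 0.39. At an unadjusted p under 0.05, 4 were higher (Pi16, Mfap5, Vim and Dpt) and 0 lower. Of all genes tested, 4.09% rose, and 12.0% were higher at an unadjusted p under 0.05. Mfap5 and Dpt are also counted among the other matrix proteins below. The difference was above 0 for 5 of the 8 and below 0 for 3, S100a4 (-0.14), Cygb (-0.10) and Dpp4 (-0.03). Of the 12, 2 were under the highest bacterial control probe set in all 8 captures (Clec3b and Tcf21). The 1 that rose was Pi16, a marker of adventitial fibroblasts, at 568 ± 193 (SD, n = 4) in orbital and 223 ± 84.9 in global captures (1.36 ± 0.30, limma adjusted p = 0.0133). The summed intensity of the 12 was 3666 to 5914 in the orbital and 3388 to 3619 in the global captures. For the 6 tendon markers on the array, which share Thbs4, Fmod, Comp, Tnmd and Tnc with the members, it was 539 to 1407 and 351 to 568. Thbs4 alone, a member that passed, had 251 to 943 of that sum in the orbital and 79.3 to 275 in the global captures. Endothelial markers summed to 1538 to 2180 in the orbital and 1487 to 1737 in the global captures, with 1 of 10 higher (Eng). At an unadjusted p under 0.05, 4 of these 10 were higher and 0 lower, and 9 differences lay above 0. Eng passed the filter through its orbital values, and 1 of its global captures was under the highest bacterial control. Markers of smooth muscle and pericytes summed to 2035 to 2748 and 2520 to 2939, with 1 of 10 tested lower (Myh11). Macrophage and other immune markers summed to 1576 to 2110 and 1571 to 2741, with 0 of 10 tested passing (1 higher and 0 lower at an unadjusted p under 0.05). Satellite cell markers summed to 357 to 580 and 299 to 377, with 1 of 2 higher (Sdc4, also on the matrix receptor list) and the other, Vcam1, at -0.40. Schwann cell and nerve markers summed to 2625 to 5303 and 1415 to 4976, with 1 of 6 tested higher (Nefm). Adipocyte markers summed to 1741 to 3915 and 1571 to 2020, a sum made up mostly of Lpl, the 1 of 3 tested that was higher. The other two lay below 0, Dgat2 at -0.52 and Cfd at -0.31. The part of these cell types in the differences of the members was not tested.

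Other genes of the matrix, from 6 further lists, were read from the same fit. Of 172 on the array 122 were tested, 10 rose and 1 fell, with a median of 0.23. Of all 7163 genes tested, 4.09% were higher and 3.59% lower. At an unadjusted p under 0.05, 39 of the 122 were higher and 4 lower, beside 12.0% and 9.91% of all genes tested. The captures did not overlap for 13 higher and 2 lower, beside 7.48% and 6.80%. These lists were also chosen with earlier results of these data known, so the shares are no test of them. The count that rose was 3 without global capture 1, orbital capture 2 or orbital capture 3, 5 without global capture 3, and 6 without global capture 4 or orbital capture 1. Over all 23 alternatives the count that rose was 1 to 12, and the count that fell was 0 to 2. Among other matrix proteins 4 of 27 rose and 0 fell, with a median of 0.43. They included Ltbp4 (0.99 ± 0.17, limma adjusted p = 0.00290), a binder of latent TGF-beta in elastic fibres. The others were the fibulins Fbln2 (0.83, limma adjusted p = 0.0276) and Fbln1 (0.70, 0.0412), and Igfbp7 (0.58, 0.045), a secreted protein that binds growth factors. Ltbp4 had 560, 564, 701 and 397 in the orbital and 254, 269, 254 and 324 in the global captures, without overlap.

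Among other proteases and inhibitors 3 of 23 rose and 1 fell, with a median of 0.40. Htra1, a secreted serine protease, differed by 0.69, Reck, a membrane inhibitor of metalloproteinases, by 0.57, and Adamtsl4, a relative of Adamts1 without a protease domain, by 0.51. Their limma adjusted p-values were 0.0278, 0.0445 and 0.0438. The lysosomal protease Ctsl was the 1 that fell (-0.58 ± 0.15, limma adjusted p = 0.0357), at 659 ± 102 (SD, n = 4) in orbital and 988 ± 165 in global captures. Among matrix receptors 1 of 23 rose, the syndecan Sdc4 (0.69), and 0 fell, with a median of 0.04. Among TGF-beta and matrix-inducing signals 2 of 22 rose and 0 fell, with a median of 0.05. These were Fstl1 (0.69, limma adjusted p = 0.0418), a secreted glycoprotein, and Nbl1, an antagonist of bone morphogenetic proteins. Nbl1 had 106, 91.5, 92.9 and 132 in the orbital and 44.1, 7.7, 19.2 and 28.9 in the global captures. It was under the highest bacterial control in 3 of the 4 global captures and passed the filter through its orbital values, so no size is given for its difference, although it counts among the 10 that rose. In basement membrane (13 tested, median 0.23) and collagen processing (14 tested, median 0.23) 0 genes passed in limma in either direction. At an unadjusted p under 0.05, 4 were higher and 1 lower in the first, and 5 higher and 0 lower in the second. Of all genes tested, 12.0% were higher and 9.91% lower at that threshold. Lama5, among the 4 higher basement membrane genes, passed the filter through its orbital values. Its value in global capture 4 (14.9) was under the highest bacterial control. Lama5 also counts among the 39 higher at that threshold over all these lists.

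**Figure D5:**
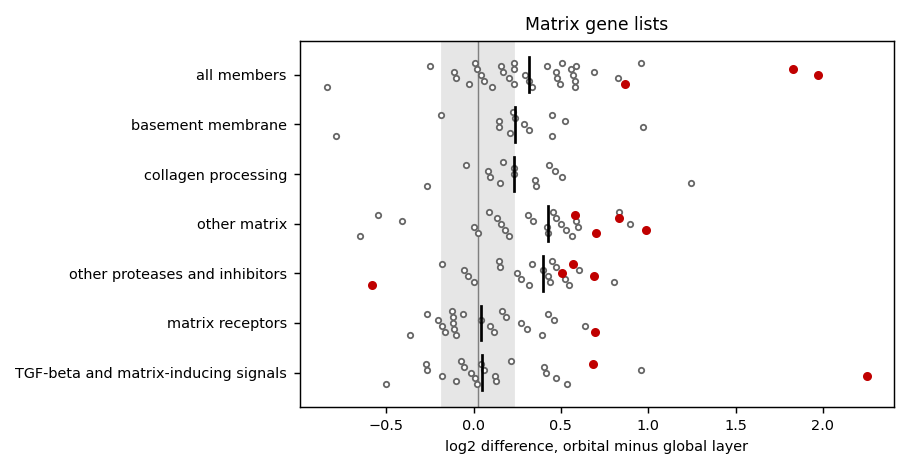
Log2 difference between the layers (x axis, orbital minus global) of the 35 members and the tested genes of 6 further matrix lists, 1 point per gene, red where the adjusted p was under 0.05, with a black bar at each median. The grey band spans the quartiles of all 7163 genes tested and the grey line their median of 0.02. Medians run from 0.04 for matrix receptors to 0.43 for other matrix proteins.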

How the data were processed

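Per the labels' protocols, capture RNA went through T7 amplification before hybridisation to Affymetrix RAE230A arrays (rat, 1 colour). The authors deposited a linear intensity for every probe set, and the software behind it is not given in the sources used here. Trimmed means (2% cut at each end) differed by at most 0.00389% between arrays, so the deposited intensities had been scaled already and were not normalized again. From 15923 probe sets, dropping 57 controls gave 15866, and the filter at the 40th percentile of the mean log2 value passed 9520. Layer was the only term of the model, fitted to log2(intensity + 1) by limma 3.58.1 under R 4.3.3 (lmFit, then eBayes with trend). The procedure was tested on simulated data. Simulated captures were drawn independently of each other, so that test cannot address captures that share a rat or repeat each other. Gene symbols came from the annotation table of the array platform, with 1 symbol for 12783, several for 312 and none for 2771. The mark for background was the highest of 27 bacterial control probe sets of each array.

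The members and lists were chosen with earlier results of these data known, so no test over a list was made. Values in every capture are given, by rule, for members that passed, members whose layers did not overlap, and the brightest and the smallest-p member of each role group. Others given in full are named as chosen after their values were seen, with Spp1, Tnc and Timp1 added likewise. Of 15 members with several probe sets, 12 had over 1 tested, and in 3 of these the signs differed. Captures were compared in pairs: orbital captures 3 and 4, of nearly the same title, correlated with r = 0.939, against 0.943 to 0.949 for the other orbital pairs. A correlation cannot tell separate captures from a repeat of the same one, and all 8 were counted. With orbital captures 3 and 4 averaged, limma adjusted p-values were 0.000104 for Adamts1, 0.00458 for Thbs4 and 0.0274 for Fmod. Alternatives were other normalizations, pseudocounts, filters and eBayes settings, a block, captures left out, each prefix alone, and the mean over probe sets. Another averaged orbital captures 3 and 4. Fits with orbital captures 1 and 2 alone and with global captures 2 and 3 alone were added after seeing the data.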

Additional observations from a re-analysis of the deposited data

Results flagged for a closer look

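In each layer the highest or lowest of the 4 captures was compared with the others for the 37 members on the array, 74 groups in all, and 4 stood apart by Dixon's criterion, where chance gives about 1 in 20. Col1a1 was 505.9 in global capture 2 and 142.1 to 178.2 in the other global captures. Tnmd was 90.4 in global capture 4 and 65.1 to 67.3 in the others. Comp was 39.5 in global capture 1 and 32.5 to 32.8 in the others. Col6a2 was 48.3 in orbital capture 1 and 61.0 to 63.6 in the other orbital captures. The cause of these was not tested.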

How the results depend on the processing

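The count of members higher in the orbital layer was 3, and 2 to 6 when 1 capture was left out. It was 5 with the filter at the 60th percentile, 1 with title prefix R2 alone, 1 with R3 alone and 1 with global captures 2 and 3 alone. The count of members lower was 0, 0 to 1 when 1 capture was left out, and 1 with R2 alone, which in both cases was Postn. Over all probe sets 705 passed, 461 to 725 with 1 capture left out (461 without global capture 3), 106 with R2 alone, 170 with R3 alone, 363 with orbital captures 1 and 2 alone and 342 with global captures 2 and 3 alone. These fits used fewer captures. Adamts1 was higher in all 23 alternatives, Thbs4 passed in 19 and Fmod in 8. With the title prefix as a replicate block 4 members were higher (Dcn, Lum, Thbs4 and Adamts1) and 745 probe sets passed, while Fmod missed the threshold (adjusted p = 0.0508). Labels do not say that the prefix pairs captures. The median difference of all members stayed between 0.23 and 0.42, and that of the fibrillar collagens between -0.17 and 0.23. The number of arrays, and signal near background for Comp, Col6a2, Timp1, Spp1 and Tnc, limit what can be seen.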
